A study of Mus musculus with 2 samples.

Results

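The cells described here are those that the authors' deposited annotation names Monocytes 2, a label given to 732 of 10050 annotated leukocytes from mouse melanomas. They number 206 of 4665 annotated cells in the APOE2 library and 526 of 5385 in the APOE4 library. YUMM1.7, a mouse melanoma line, was injected under the skin (100000 cells with Matrigel) of mice that carry a knock-in of human APOE2 or human APOE4, so both groups are knock-in mice. Tumours were taken on day 19, and CD45+ DAPI- cells (living leukocytes) were sorted, 10000 from each of 6 mice per genotype. The sorted cells of a genotype were pooled into 1 droplet library for 3' sequencing, so genotype, pool and library cannot be told apart. There is no replicate to test against, no p-value is given, and each 95% interval covers counting error only. A read count here is a count of UMIs (unique molecular identifiers), and a level is in CPM, a gene's UMIs scaled to all UMIs of the label's summed cells in 1 library. A ratio is the APOE4 level divided by the APOE2 level.

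Classical monocytes, which carry Ly6C on their surface in mice, leave the bone marrow with the help of the chemokine receptor CCR2 and turn into macrophages or dendritic cell-like cells inside tumours. Interferons change what such cells make: type I interferons act largely through the ISGF3 complex on the interferon-stimulated response element (ISRE), and interferon gamma acts through the gamma-activated sequence (GAS). CXCL9 and CXCL10, both induced by interferon gamma, draw activated T cells and natural killer cells through the receptor CXCR3. APOE is a lipid carrier made in abundance by macrophages, and its human forms differ in how they bind lipids and receptors.

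Upstream sequences of 4 genes are printed. Ly6c2, which encodes Ly6C, Cxcl9 and Fam26f, an interferon-induced membrane protein gene that RefSeq calls Calhm6, are markers of the label. Cxcl10 is not one of its markers but is among the genes that led its profile. Each sequence is the 250 bases before the annotated start on the gene's own strand, from RefSeq on build GRCm38.p6, 5′ to 3′. Capitals mark a match to the ISRE letters (GAAA, then NN, then GAAA, with N for any base) or the GAS letters (TTC, then NNN, then GAA), searched on both strands. The windows lie at chr10:34127973-34128222 for Fam26f, chr5:92348890-92349139 for Cxcl10, chr5:92328080-92328329 for Cxcl9 and chr15:75111972-75112221 for Ly6c2, all on the minus strand.
Fam26f: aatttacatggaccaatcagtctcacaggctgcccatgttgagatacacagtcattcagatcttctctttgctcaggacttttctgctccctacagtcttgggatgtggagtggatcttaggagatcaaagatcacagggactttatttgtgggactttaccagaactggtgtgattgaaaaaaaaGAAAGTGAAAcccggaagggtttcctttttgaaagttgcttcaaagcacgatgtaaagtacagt
Cxcl10: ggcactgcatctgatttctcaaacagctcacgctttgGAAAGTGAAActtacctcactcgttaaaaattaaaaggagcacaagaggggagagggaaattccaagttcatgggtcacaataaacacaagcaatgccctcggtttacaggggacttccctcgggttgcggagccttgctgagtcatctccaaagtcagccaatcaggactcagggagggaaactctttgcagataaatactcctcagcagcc
Cxcl9: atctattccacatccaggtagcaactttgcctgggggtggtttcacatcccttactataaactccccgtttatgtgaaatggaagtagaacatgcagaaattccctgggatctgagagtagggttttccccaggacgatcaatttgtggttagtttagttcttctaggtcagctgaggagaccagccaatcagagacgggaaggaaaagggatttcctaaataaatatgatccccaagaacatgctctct
Ly6c2: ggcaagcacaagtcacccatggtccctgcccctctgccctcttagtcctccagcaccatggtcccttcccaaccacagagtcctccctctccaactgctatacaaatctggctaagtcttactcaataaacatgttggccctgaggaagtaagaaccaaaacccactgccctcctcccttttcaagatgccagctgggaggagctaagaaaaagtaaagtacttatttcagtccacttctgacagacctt
Fam26f and Cxcl10 each hold the ISRE match GAAAGTGAAA, whose first base lies 64 bases before the start of Fam26f and 213 before that of Cxcl10. The windows printed for Cxcl9 and Ly6c2 hold neither set of letters, which says only that these letters are absent from them. The window of Ccr2, the marker that is not printed, holds neither set as well. Among the 4 markers of the label, Fam26f alone thus held the ISRE letters. Over all 32851 RefSeq promoter windows, which run from 250 bases before a start to 50 after it, 3.44% held the ISRE letters and 8.30% the GAS letters. A match is a description of letters, not a bound site or a cause.

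The label was checked against its 4 markers, Ly6c2, Cxcl9, Fam26f and Ccr2, over every label with at least 20 cells in a library (25 labels in the APOE2 library and 24 in the APOE4 library). Cxcl9 (ENSMUSG00000029417, mm10 chromosome 5, 92321347 to 92328079) stood at 928 CPM and 1303 CPM in Monocytes 2 of the APOE2 and APOE4 libraries, the highest level of any label in both. Fam26f (ENSMUSG00000046031, chromosome 10, 34126067 to 34127984) was also highest there, at 172 CPM and 362 CPM. Both genes were thus highest in Monocytes 2 in either library. Ly6c2 (ENSMUSG00000022584, chromosome 15, 75108158 to 75111970) reached 1453 CPM in APOE2, below NKT cells at 1623 CPM, and 3378 CPM in APOE4, above pDCs at 3004 CPM. Ccr2 (ENSMUSG00000049103, chromosome 9, 124101950 to 124113557) was at 939 CPM and 845 CPM, below Monocytes 1 and Monocytes 3 in both libraries. Ly6c2 and Ccr2 were thus high in other labels too, whereas for Cxcl9 and Fam26f the next labels of the APOE2 library held 106 CPM and 66.0 CPM. In the APOE4 library Cxcl9 was also high elsewhere, at 768 CPM in Mø cluster 1 and 461 CPM in Monocytes 1, and the next label for Fam26f held 118 CPM. The sum of the 4 genes ranked first of all labels in each library. The 12 classical monocyte markers summed to 11744 CPM in APOE2, below Monocytes 3 at 12018 CPM, and to 18810 CPM in APOE4, the highest of any label. The macrophage markers summed to 6755 CPM and 2976 CPM, against 18171 CPM and 15337 CPM in Mø cluster 1. Their sum was lower in Monocytes 1, at 4887 CPM and 2550 CPM, and in Monocytes 3, at 1254 CPM and 995 CPM. Monocytes 2 thus held the most macrophage UMIs of the 3 monocyte labels, ranking 4 of 25 labels in APOE2 and 5 of 24 in APOE4. By the classical monocyte sum, which ranked 2 of 25 and 1 of 24, the data do not go against the name. Every cell of the label belongs to 1 cluster of the authors' clustering.

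**Figure D1:**
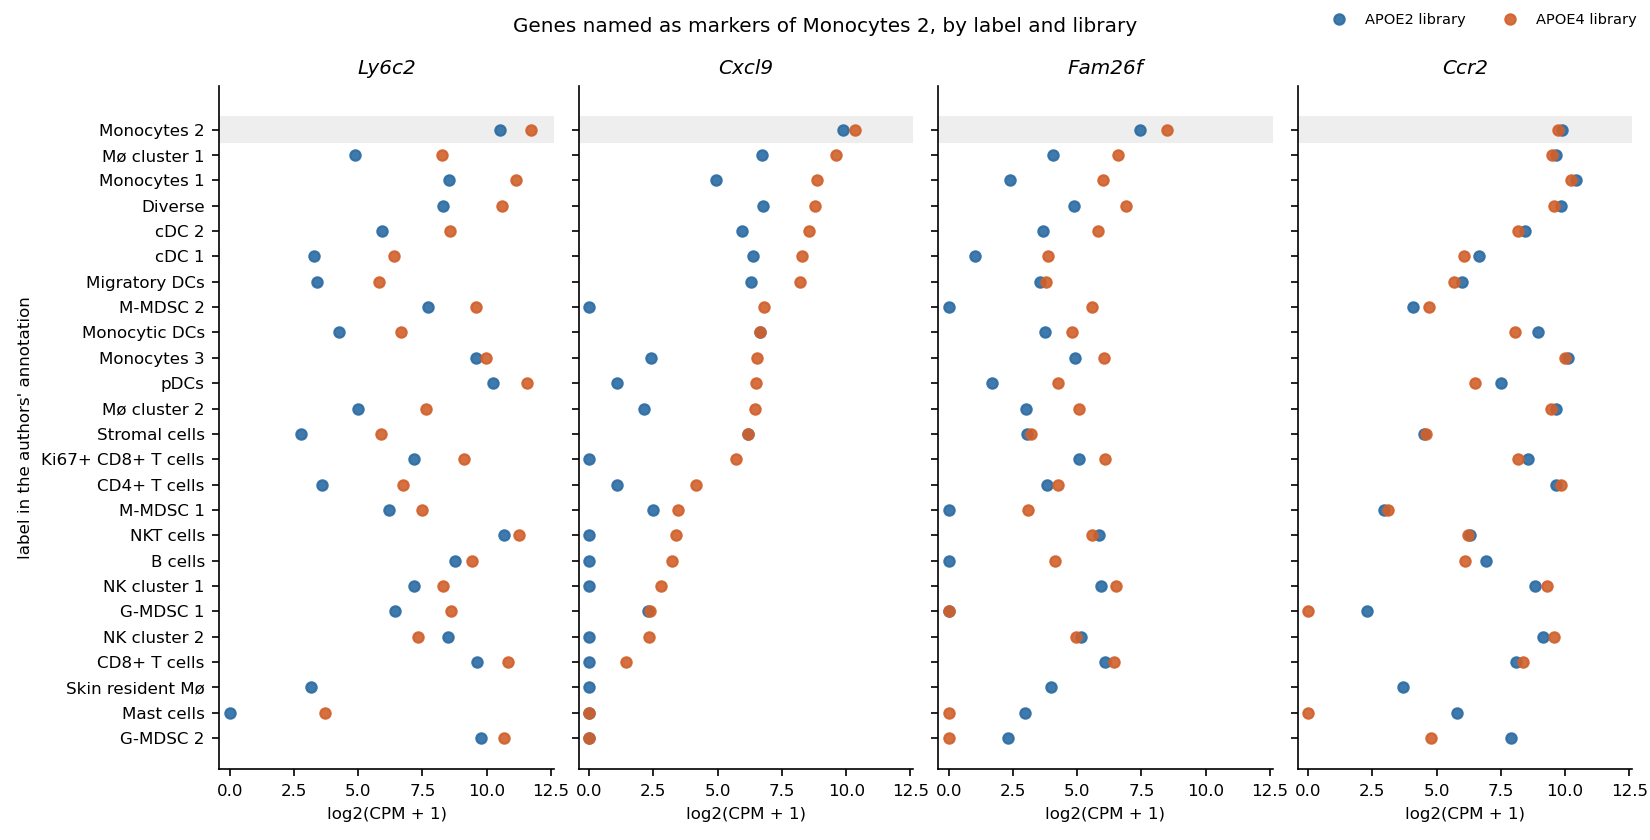
Level of the 4 marker genes, as log2(CPM + 1), in each annotated cell type of the APOE2 library and the APOE4 library, with Monocytes 2 shaded. Cxcl9 and Fam26f are highest in Monocytes 2 in both libraries, while Ccr2 is higher in Monocytes 1 and Monocytes 3.

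Genes for interferon responses and chemokines led the profile of Monocytes 2. Of 5439 genes with at least 100 UMIs in these cells, 265 (4.87%) were at least 2-fold higher than in all other annotated cells in both libraries and 100 (1.84%) were at least 2-fold lower in both. Because the authors' clusters were made from the expression of these same cells, the gaps describe the label and are not tested. Cxcl10 stood at 2096 CPM and 3232 CPM in Monocytes 2, against 115 CPM and 476 CPM in the other cells. Aplnr, the receptor for apelin, was at 13.3 CPM and 23.7 CPM against 0.240 CPM and 0.960 CPM, the largest gap by the rule used, though only 2.4% and 4.2% of cells held a UMI of it when each cell was thinned to 1500 UMIs. Il27, a subunit of the cytokine interleukin 27, was at 19.6 CPM and 35.8 CPM against 1.61 CPM and 5.44 CPM. Ifit2, an interferon-induced RNA-binding protein gene, was at 481 CPM and 594 CPM against 21.2 CPM and 105 CPM. The other genes in the 12 that led were Cfb, Trim30c, Batf2, Mnda, Ly6i and Gm5431 together with Cxcl9 and Fam26f. For each of these 12 genes, both Monocytes 2 and the other cells held more in the APOE4 library than in the APOE2 library. Against the other monocyte and macrophage labels alone, 241 genes (4.43%) were at least 2-fold higher in both libraries and 54 (0.993%) lower.

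Against Monocytes 1, 208 of 7330 genes (2.84%) were at least 2-fold higher in Monocytes 2 in both libraries and 43 (0.587%) were lower. The 8 that stood out most were again interferon-induced genes for the most part: Aplnr, Cxcl10, Rilpl1, Cmpk2, Ifit1, Rsad2, Ifit3b and Ifit2. Rsad2, which encodes the antiviral enzyme viperin, was at 773 CPM and 872 CPM in Monocytes 2 and at 10.4 CPM and 53.3 CPM in Monocytes 1. Ifit1 was at 424 CPM and 522 CPM, against 3.88 CPM and 30.3 CPM. The gap on the log2 scale was wider in APOE2 than in APOE4 for both, at 6.22 and 4.03 for Rsad2 and 6.77 and 4.11 for Ifit1. Among the 8 lowest, Ctsl, the lysosomal protease cathepsin L, was at 324 CPM and 182 CPM in Monocytes 2 and at 763 CPM and 366 CPM in Monocytes 1. The others, Nt5dc2, Dab2, Mgst3, Zfhx3, Uck2, Arhgap24 and Def6, were lower by between 0.86 and 1.56 on the log2 scale in each library. Against Monocytes 3, 390 of 6362 genes (6.13%) were higher in both libraries and 171 (2.69%) lower. Against Mø cluster 1 the counts were 322 higher (4.03%) and 440 lower (5.51%) of 7989 genes, and against Mø cluster 2 they were 460 (6.1%) and 514 (6.82%) of 7535.

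Over the 5439 genes, the log2 levels of Monocytes 2 correlated with those of Monocytes 1 of the same library at 0.902 in APOE2 and 0.948 in APOE4, and with those of the label named Diverse at 0.917 and 0.937. Monocytes 2 of the APOE2 library correlated at 0.951 with Monocytes 1 of the APOE4 library, while Monocytes 2 of APOE4 and Monocytes 1 of APOE2 correlated at 0.855. Between libraries, Monocytes 2 correlated with itself at 0.971, Monocytes 1 at 0.952 and Monocytes 3 at 0.962. These are across genes, which are not independent, and within a library they share its depth.

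The label made up 4.42% (exact 95% interval 3.84 to 5.05) of annotated cells in APOE2 and 9.77% (8.99 to 10.6) in APOE4. The ratio of the shares was 2.21 (1.89 to 2.59). Among myeloid cells alone the shares were 5.71% and 16.2%, and among the monocyte and macrophage labels they were 11.9% and 33.8%, a ratio of 2.84 (2.46 to 3.29). The same ratio among all annotated cells was 1.19 (0.984 to 1.45) for Monocytes 3, and it was below 1 for Monocytes 1 at 0.768, Mø cluster 1 at 0.441 and Mø cluster 2 at 0.350. Ly6c2, Cxcl9 and Fam26f, which mark the label, also differed between the libraries in the same direction within all 5 of these labels, so the share is not independent of those genes, and how much of its gap comes from where cells were assigned was not tested. With 1 pool per genotype the spread between mice is unknown.

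Within Monocytes 2 the libraries were alike in depth, with a median of 6864 UMIs and 2278.5 genes per cell in APOE2 and 6940 UMIs and 2279.5 genes in APOE4. The median mitochondrial share was 3.27% and 2.74%. The summed cells held 1582877 and 3884422 UMIs, so a gene of a given level is counted with more error in APOE2. Of 8821 genes with at least 20 UMIs over both libraries, 4189 were higher and 4632 lower in APOE4, with a median log2 ratio of -0.02 (quartiles -0.30 and 0.22). At least 2-fold higher in APOE4 were 169 genes (1.92%) and at least 2-fold lower were 293 (3.32%). Among the 5439 genes with at least 100 UMIs these were 41 (0.754%) and 53 (0.974%). The split of the 8821 genes was 197 higher and 242 lower after TMM scaling. Thinning each cell to 1500 UMIs turned it to 249 and 172, over the genes that then had at least 20 UMIs.

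Of the 4 markers, Ly6c2 and Fam26f passed the 2-fold mark (background 1.92%), and all but Ccr2 were higher in APOE4. Ly6c2 had 2300 UMIs in APOE2 and 13122 in APOE4, a ratio of 2.32 (2.22 to 2.43). When thinned, 52.7% (45.6 to 59.7) of APOE2 cells and 84.4% (81.0 to 87.4) of APOE4 cells held a Ly6c2 UMI, against 77.7% and 96.2% unthinned. In B cells, whose median depths were 2365.5 and 3963.5 UMIs, the thinned shares were 13.9% and 17.7%. B cells are not a label without Ly6c2, since they held 429 CPM in APOE2 and 683 CPM in APOE4. In APOE2 this was above Monocytes 1, at 365 CPM. The share of Monocytes 2 cells lay well above that level in both libraries. Fam26f had a ratio of 2.10 (1.84 to 2.40), with 20.5% and 36.3% of thinned cells holding a UMI, against 0% of 36 B cells (upper bound 9.74%) and 1.61% of 62. Cxcl9 had a ratio of 1.40 (1.33 to 1.49), and a thinned share of 20% (14.8 to 26.1) and 35.2% (31.1 to 39.4). Most cells of the label therefore held no Cxcl9 UMI at this depth, and 3 cells held 35.2% of its UMIs in APOE2. Without the 2% of cells richest in the gene, a setting chosen after seeing the data, Cxcl9 stood at 562 CPM and 1064 CPM, a ratio of 1.89. Ccr2 had a ratio of 0.901 (0.847 to 0.958), with 69.3% and 66.7% of thinned cells holding a UMI.

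The 12 highest ratios included those of Ly6c2 and Fam26f given above and of other genes that monocytes express. Plac8, a marker of classical monocytes, was at 4187 CPM and 7996 CPM, a ratio of 1.91. Ly6i, of the same gene family as Ly6c2, was at 253 CPM and 720 CPM, a ratio of 2.85 (2.57 to 3.17). Sod2, the mitochondrial superoxide dismutase, was at 226 CPM and 483 CPM, and Fas, the death receptor, at 26.5 CPM and 70.3 CPM. For these 4 genes, 3 cells held between 5.18% and 21.4% of the APOE2 UMIs. Slc2a6, a sugar transporter gene, stood at 12 CPM and 37.8 CPM, and Tmem67, Smpdl3b and Plxnd1 had ratios of 3.33, 2.43 and 2.39. Pydc3, a small PYHIN-type gene, had the largest ratio, 17.9 (9.33 to 39.4), from 9 UMIs in APOE2 and 395 in APOE4. A Pydc3 UMI was found in 2.91% of APOE2 cells and 41.6% of APOE4 cells, unthinned. The gap was not confined to Monocytes 2, since all other annotated cells held Pydc3 at 1.98 CPM in APOE2 and 39.8 CPM in APOE4. Ly6i stood at 16.1 CPM and 128 CPM in those other cells. The rest of the 12 were also higher there in APOE4, except Lyz1, at 42.3 CPM and 18.7 CPM. The other cells are a mix of labels whose shares differ between the libraries. Pydc3, the Ly6 genes, the Gbp, Ifit, Hspa1 and H2-Q genes all have near-identical relatives, between which the counting could lose or split reads. Lyz1, a lysozyme gene, had a ratio of 3.21 (2.09 to 5.13), but 3 cells held 57.7% of its APOE4 UMIs, and without the richest 2% of cells it was at 8.40 CPM and 8.72 CPM.

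The 12 lowest ratios included 6 genes that macrophages express. C1qa, a chain of complement C1q made by macrophages, was at 1919 CPM in APOE2 and 762 CPM in APOE4, a ratio of 0.397 (0.377 to 0.418). C1qb stood at 2099 CPM and 842 CPM, and C1qc at 976 CPM and 416 CPM. All 3 chains thus had ratios near 0.4. A C1qa UMI was present in 34.6% (28.1 to 41.6) of APOE2 and 18.6% (15.4 to 22.2) of APOE4 cells after thinning, and in 0% of B cells in both (upper bounds 9.74% and 5.78%). Trem2, a lipid-sensing receptor of macrophages, was at 162 CPM and 70.3 CPM, a ratio of 0.433 (0.364 to 0.515). Ms4a7, a macrophage membrane protein gene, stood at 234 CPM and 90.9 CPM, and Dab2, an endocytic adaptor, at 401 CPM and 187 CPM. Outside this group, Mt1, a metal-binding metallothionein, was at 280 CPM and 99.9 CPM, and Trf, transferrin, at 232 CPM and 83.2 CPM. Htra3 and Wdfy1 had ratios of 0.298 and 0.370. The heat shock genes Hspa1a and Hspa1b, at ratios of 0.305 and 0.261, belong to this list through 3 cells, which held 77.6% and 86.4% of their APOE2 UMIs. Without the richest 2% of cells Hspa1a was at 43.6 CPM and 39.0 CPM, and the Hspa1b ratio turned to 1.23. All 12 genes were also lower in APOE4 in the mix of all other annotated cells. There Mt1 stood at 476 CPM in APOE2 and 199 CPM in APOE4, and Trf at 176 CPM and 72.5 CPM.

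**Figure D2:**
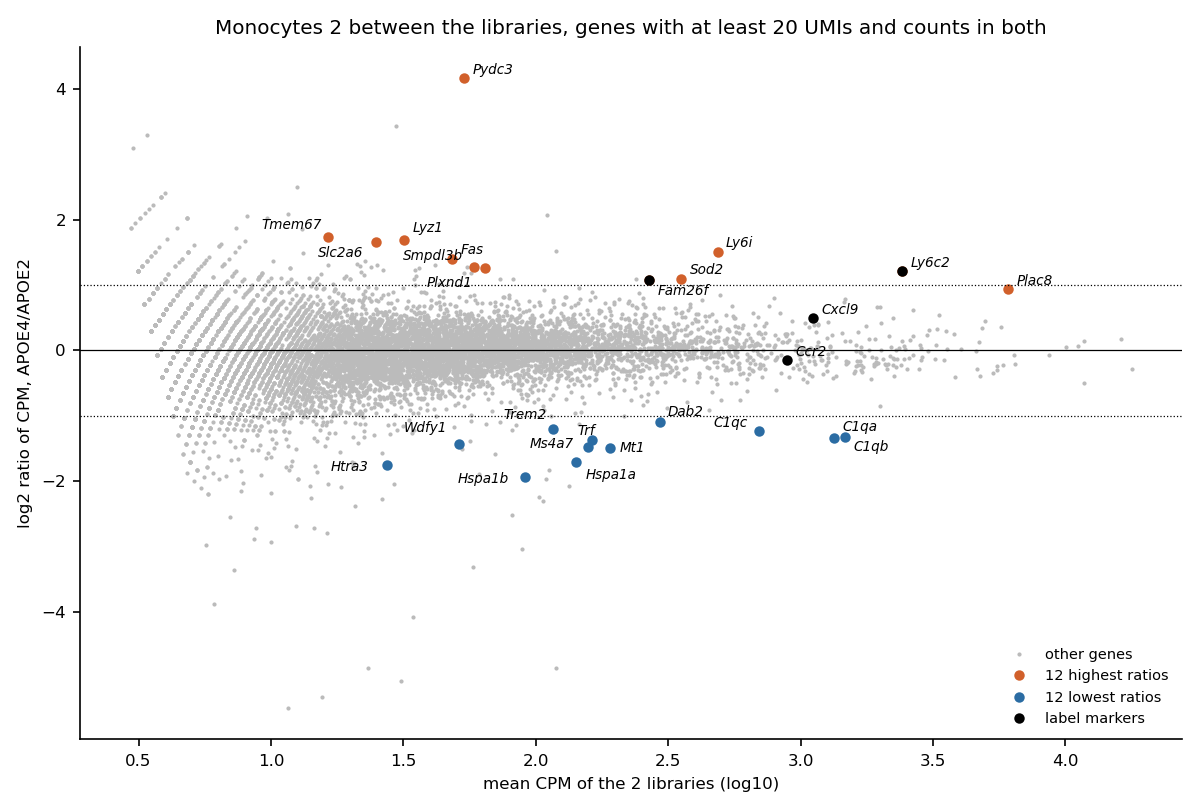
Log2 of the APOE4/APOE2 ratio in Monocytes 2 against the log10 mean CPM, 1 point per gene with at least 20 UMIs and a UMI in both libraries, with named genes labelled. Most genes lie near 0, Pydc3, Ly6i, Ly6c2 and Plac8 lie above, and C1qa, C1qb, Trem2 and Mt1 lie below.

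Genes induced by interferons were higher in APOE4 as groups, mostly by less than 2-fold. Of 29 measured genes of the type I interferon response, 28 were higher, none passed the 2-fold mark (background 1.92%), and the median log2 ratio was 0.44 against -0.02 over all genes. Isg15, a ubiquitin-like protein gene, stood at 1850 CPM and 2607 CPM, a ratio of 1.41 (1.35 to 1.47), and was found in 71.7% and 91.6% of thinned cells. Irf7, a transcription factor of this response, was at 1077 CPM and 1462 CPM, and Oasl1, which restrains it, had the largest ratio of the list at 1.65. Ifit3b had the lowest, 0.984. The other 27 ratios lay between, so the members differed little from each other. Of 9 guanylate-binding protein genes, which act against intracellular microbes, 8 were higher with a median of 0.57, and Gbp2 was at 581 CPM and 1008 CPM, a ratio of 1.74 (1.62 to 1.87). Of 8 immunity-related GTPases, 6 were higher and 2 passed 2-fold, with a median of 0.68, among them Irgm2 at 34.7 CPM and 78.8 CPM. Of 9 PYHIN genes, which encode DNA sensors and their relatives, all 9 were higher with a median of 0.37, and Pydc3 alone passed 2-fold. Of 6 Schlafen genes, all were higher with a median of 0.39, and Slfn4 had a ratio of 2.13.

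Among 17 other genes of the interferon gamma response, 16 were higher and 4 passed 2-fold (background 1.92%), with a median of 0.63. Irf1, a transcription factor induced by interferon gamma, was at 186 CPM and 324 CPM. Cd274, which encodes the checkpoint ligand PD-L1, was at 93.5 CPM and 165 CPM, a ratio of 1.76 (1.47 to 2.12). The 4 past 2-fold were Fam26f, Il18bp, Batf2 and Nos2, the inducible nitric oxide synthase, which had a ratio of 5.64 (2.48 to 15.8) on 6 and 83 UMIs. Ifngr1, the ligand-binding chain of the interferon gamma receptor, was the member that was lower, at 553 CPM and 408 CPM. Of 18 regulatory factors, kinases and receptors of the interferon pathways, 16 were higher with a median of 0.35. Of 15 nucleic acid sensing genes 12 were higher, with a median of 0.27, and Samhd1, which degrades nucleotides, stood at 1085 CPM and 1866 CPM. These lists overlap, since Irf1, Irf7, Ifih1 and Zbp1 each stand in more than one of them.

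The ISRE letters stood before the start of many of these genes. Of the genes of the type I list, 22 matched the RefSeq table, and 13 (59.1%) held the ISRE letters in at least 1 window, against 3.99% of all 27025 genes in the table. All 5 matched guanylate-binding protein genes held them, as did 5 of 6 immunity-related GTPases and 6 of 8 PYHIN genes. The GAS letters stood in 4 of the 6 immunity-related GTPases, against 9.55% of all genes. Of the 12 genes that lead the label, 7 matched, and 3 held the ISRE letters: Fam26f, Cxcl10 and Mnda, which RefSeq calls Ifi211. None of the 9 matched genes among the 12 lowest ratios held them, and 2 of the 10 matched among the 12 highest did. These are counts of letters in fixed windows and name no factor that acts there. The interferon lists hold genes chosen as interferon-induced, so their shares describe the lists and not these cells.

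Chemokine genes did not all differ in the same direction. Both measured CXCR3 ligands were higher in APOE4: Cxcl9 as given above, and Cxcl10 at 2096 CPM and 3232 CPM, a ratio of 1.54, with 42.0% (35.1 to 49.0) and 53.2% (48.9 to 57.6) of thinned cells holding a UMI and 0% and 3.23% of B cells. Their summed level was the highest of any label in both libraries. Ccl7, a monocyte-attracting chemokine, was at 139 CPM and 24.2 CPM, with 48.2% of its APOE2 UMIs in 3 cells. Ccl3 was at 590 CPM and 315 CPM, while Ccl2 and Ccl5 had ratios of 0.947 and 1.03. Neutrophil-attracting Cxcl2 stood at 2565 CPM and 1418 CPM. Of 10 chemokine receptors 5 were higher and 5 lower, with Cx3cr1, which marks patrolling monocytes and tissue macrophages, at 116 CPM and 52.5 CPM. Among 17 inflammatory cytokine and inflammasome genes 13 were higher with a median of 0.20, including Il1b, the cytokine interleukin 1 beta, at 4196 CPM and 5710 CPM. None of the 17 was at least 2-fold higher, and 2 were at least 2-fold lower (background 3.32%).

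The gene groups of antigen presentation went apart. Of 19 genes of MHC class I presentation, which shows peptides to CD8+ T cells, 18 were higher in APOE4 and none passed 2-fold, with a median of 0.45. H2-K1 stood at 2730 CPM and 3382 CPM, and Tap1, a peptide transporter subunit, had a ratio of 1.44. Of 12 genes of MHC class II presentation, which serves CD4+ T cells, 10 were lower, H2-DMb2 alone past 2-fold, with a median of -0.21. Cd74, the invariant chain, was at 13694 CPM and 9740 CPM, a ratio of 0.711, and H2-Ab1 at 6084 CPM and 4931 CPM, a ratio of 0.810. Ciita, the master regulator of class II genes, had a ratio of 1.08. Of 15 costimulatory and checkpoint ligand genes 9 were higher, with a median of 0.23, and Cd86 was at 341 CPM and 402 CPM. In this list 1 gene was at least 2-fold higher (background 1.92%) and 2 were at least 2-fold lower (background 3.32%).

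Macrophage genes were lower in APOE4 across the whole list. All 13 measured macrophage markers were lower, 8 of them by at least 2-fold (background 3.32%), with a median of -1.21. Mrc1, the mannose receptor, was at 215 CPM and 51.2 CPM, a ratio of 0.239, and Folr2 at 12 CPM and 2.06 CPM. Apoe counts, which are UMIs assigned to the mouse gene in mice that carry the human one, stood at 186 CPM and 114 CPM. How reads of the human gene were assigned is not given in the sources used here. Of 14 alternatively activated and immunosuppressive genes 12 were lower, 9 by at least 2-fold, with a median of -1.52. Over the 8 of them measured in all 5 monocyte and macrophage labels the median was -0.18. The value of -1.52 thus rests on members not measured in every label. In Monocytes 1 this list had a median of -1.28 over 15 genes. Arg1, the enzyme arginase 1, was at 159 CPM and 19.3 CPM, a ratio of 0.122 (0.0928 to 0.158), with a UMI in 8.29% and 2.28% of thinned cells. Since 3 cells held 61.0% of its APOE2 UMIs, the level rests on few cells, and without the richest 2% it was at 52.5 CPM and 2.12 CPM. Mgl2, a lectin gene of macrophages and dendritic cells, was at 105 CPM and 10.6 CPM. Of 10 lipid-associated macrophage genes all were lower, 4 by at least 2-fold, with a median of -0.91, among them Spp1, osteopontin, at 174 CPM and 49.2 CPM and Cd63, a lysosomal membrane protein gene, at 178 CPM and 35.8 CPM. These lists overlap and are not independent groups. Trem2 stands in each of them, Mrc1 and Folr2 are macrophage and alternatively activated members, and Spp1 is an alternatively activated and lipid-associated member.

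Lists next to these had medians below 0 by smaller amounts, and few of their members passed 2-fold. Of 20 lysosome and phagocytosis genes 17 were lower with a median of -0.30, and 1 passed 2-fold, a share near the background of 3.32%. Of 9 efferocytosis and scavenger receptor genes 8 were lower, with a median of -0.42. Of 14 LXR targets and cholesterol efflux genes 12 were lower, 2 by at least 2-fold, with a median of -0.29, among them Abca1, the cholesterol exporter, at 186 CPM and 96.0 CPM. Of 11 complement genes 7 were lower, 3 by at least 2-fold, with a median of -0.68, with the C1q chains at the low end and C3, the central complement protein, at a ratio of 1.58. The 3 past 2-fold were the C1q chains, which are already counted among the macrophage markers. Cholesterol synthesis genes lay on the other side of 0. Of 16 of them 12 were higher, with a median of 0.31, and Fdft1, an early enzyme of the sterol branch, had a ratio of 2.72. That ratio rests on few counts, since without the richest 2% of cells Fdft1 had 0 UMIs left in APOE2 and 8 in APOE4. Of 9 APOE receptor genes 4 were higher and 5 lower, with a median of -0.03. Among 12 classical monocyte markers 8 were higher with a median of 0.39, while Fn1, fibronectin, was at 631 CPM and 372 CPM.

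Several groups showed medians close to that of all genes. The medians were -0.09 for 20 glycolysis and hypoxia genes, -0.01 for 20 nuclear genes of the respiratory chain, 0.01 for 13 dissociation stress genes and 0.04 for 11 genes of the unfolded protein response, with none of the glycolysis, respiratory chain or dissociation stress genes past 2-fold in either direction. Of 15 monocyte transcription factors 10 were lower with a median of -0.04, from Id2 at 196 CPM and 102 CPM to Irf8 at 283 CPM and 377 CPM. Within 6 Fc receptor genes, 3 were lower, with the inhibitory receptor Fcgr2b at 759 CPM and 495 CPM and the high-affinity receptor Fcgr1 at 811 CPM and 964 CPM.

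**Figure D3:**
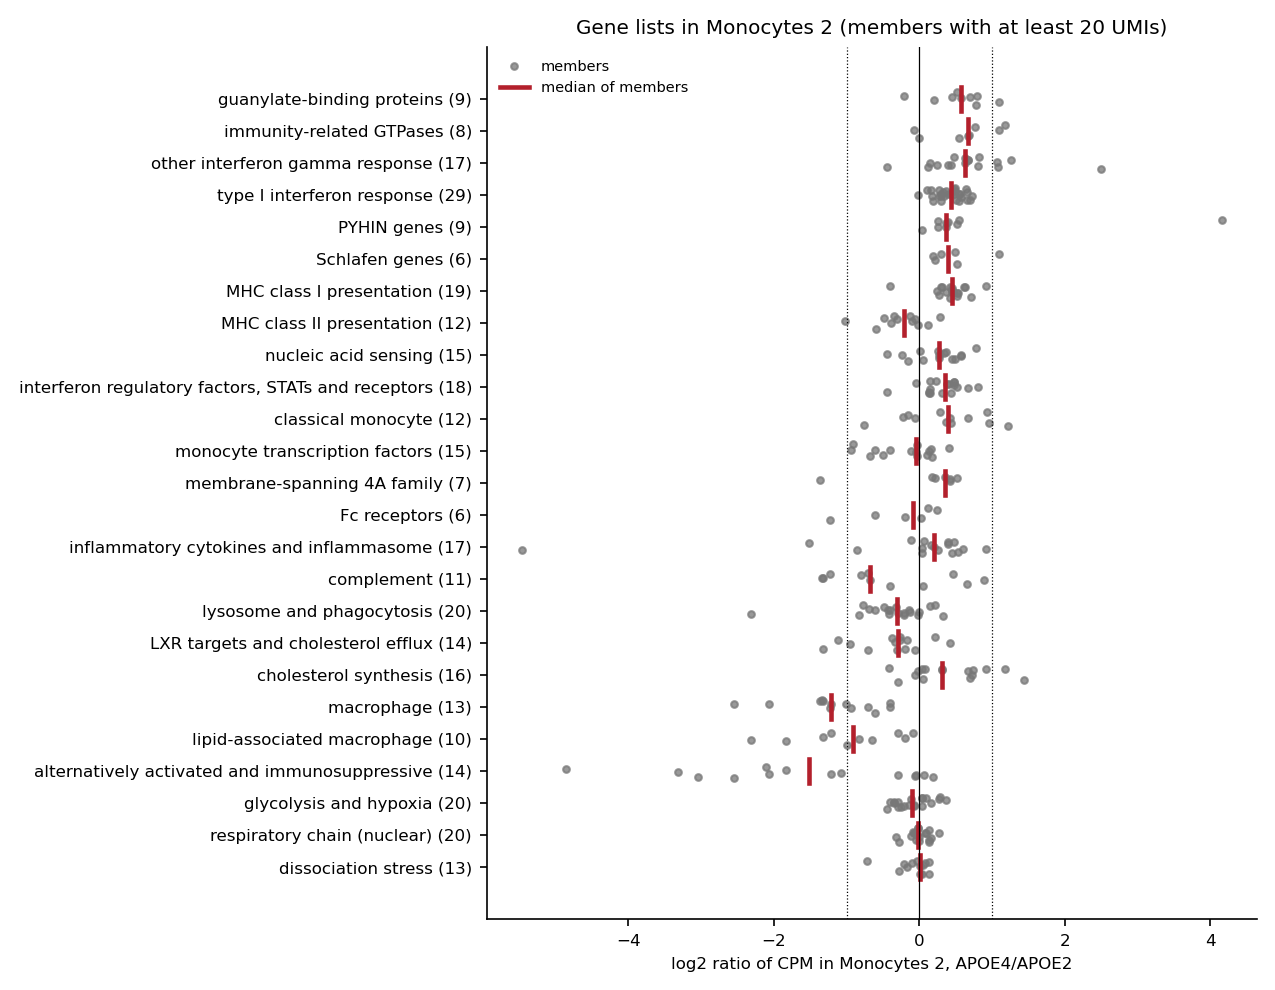
Log2 of the APOE4/APOE2 ratio in Monocytes 2 for each measured member (dots) of 25 gene lists, with the list's median in red and the number of measured members in brackets. Interferon, PYHIN and class I lists lie above 0, and the macrophage, alternatively activated and lipid-associated macrophage lists lie below.

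Macrophage UMIs were unevenly spread over the cells of the label. At 1500 UMIs per cell the type I interferon list took a median of 17 UMIs in APOE2 (10th to 90th percentile 7 to 45) and 25 in APOE4 (12 to 47), against 3 and 9 in Monocytes 1. The classical monocyte list took a median of 17 and 28 UMIs. The macrophage list took a median of 3 UMIs in APOE2 with a 90th percentile of 26.6, and a median of 1 in APOE4 with a 90th percentile of 12, so most of its UMIs came from a minority of cells. At least 10 macrophage UMIs were found in 70 of 205 APOE2 cells, 34.1% (27.7 to 41.1), and in 68 of 526 APOE4 cells, 12.9% (10.2 to 16.1). This is a range of a score and not a cell type, with 13 and 18 cells between 8 and 11 UMIs. Cells at or above it held a median of 86.5 class II UMIs in APOE2 and 82.5 in APOE4, and cells below it held a median of 21 in both libraries. Class II levels thus differed between cells with more and fewer macrophage UMIs and had like medians in both libraries within each range. The interferon medians were 15 and 23.5 at or above the mark and 19 and 26 below it, so these were higher in APOE4 on either side.

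**Figure D4:**
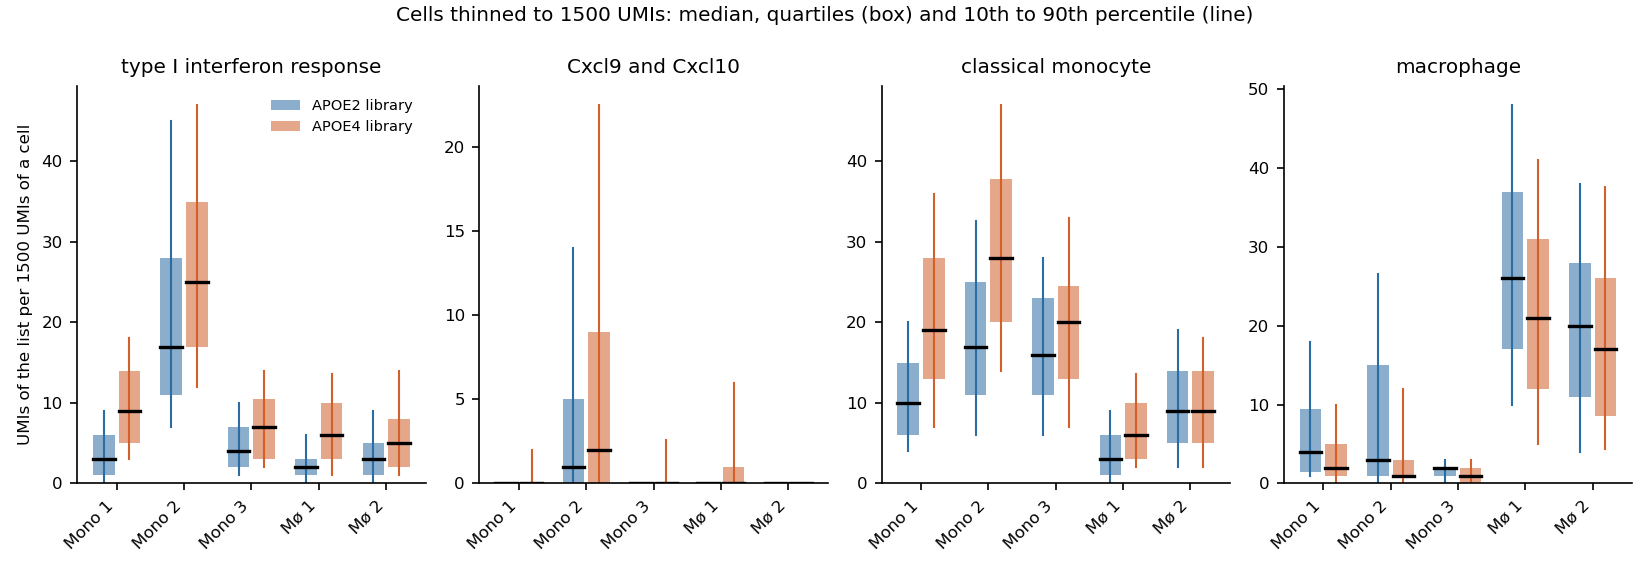
UMIs of 4 gene lists per cell after thinning to 1500 UMIs, for Monocytes 2 and 4 neighbouring labels in each library, with the median, the quartiles and the 10th to 90th percentile. Among the labels shown, interferon UMIs are highest in Monocytes 2, with medians of 17 and 25. Its macrophage UMIs have a low median and a long upper range.

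Genes of the label were not all found in the same cells. In APOE4, Cxcl9 was found in 144 of the 444 cells with a Ly6c2 UMI (32.4%) and in 41 of the 82 without (50%). In APOE2 the shares were 14.8% and 25.8%. The share with Cxcl9 was thus lower among the cells with a Ly6c2 UMI in both libraries, and so was that with C1qa, at 23.1% and 47.4% in APOE2 and 16.4% and 30.5% in APOE4. Ccr2 went the other way, at 76.9% of cells with a Ly6c2 UMI and 60.8% of those without in APOE2, and 69.6% and 51.2% in APOE4. Fam26f was found in 51.4% of APOE4 cells with a Cxcl9 UMI and 28.2% of those without. Across cells the classical monocyte and macrophage lists correlated at -0.42 over 205 APOE2 cells and -0.21 over 526 APOE4 cells, a weak relation between counts that share each cell's fixed total.

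For most interferon-induced lists the same contrast was larger in the neighbouring labels. The median log2 ratio of the type I list was 0.44 in Monocytes 2, 1.95 in Monocytes 1, 0.97 in Monocytes 3, 1.88 in Mø cluster 1 and 1.03 in Mø cluster 2. Not every interferon list showed this. For the 18 factors, kinases and receptors of the interferon pathways measured in all 5 labels, the median was 0.35 here. It was 0.32 in Monocytes 1, 0.31 in Monocytes 3, 0.30 in Mø cluster 1 and 0.21 in Mø cluster 2. For the other interferon gamma genes it was 0.63 here and 0.67 in Mø cluster 2, and over the 12 of them measured in all 5 labels 0.55 and 0.52. The median of class I genes was 0.45 here and 0.25 in Monocytes 3. Isg15 had a ratio of 1.41 in Monocytes 2 and 4.94 in Monocytes 1, and the first divided by the second was 0.285 (0.250 to 0.325). Rsad2 had ratios of 1.13 and 5.15, and Gbp2 of 1.74 and 6.40. Cxcl9 had a ratio of 1.40 in Monocytes 2 and 15.5 in Monocytes 1, where it stood at 29.8 CPM and 461 CPM. Monocytes 2 thus had the highest levels of these genes among the 5 labels in both libraries and the smallest ratios among them for Cxcl9, Isg15, Irf7, Gbp2 and Rsad2. Ly6c2 had a ratio of 6.22 in Monocytes 1 and 10.8 in Mø cluster 1, against 2.32 here and 1.28 in Monocytes 3. Over all genes with at least 20 UMIs, the shares at least 2-fold higher and lower in APOE4 were 3.53% and 3.67% in Monocytes 1, 2.74% and 1.63% in Monocytes 3, 3.52% and 3.85% in Mø cluster 1, and 2.56% and 3.04% in Mø cluster 2. No test of these gaps is possible with 1 library per genotype, and the intervals cover counting error only.

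Macrophage genes and class II genes gave another picture. C1qa had ratios of 0.397 in Monocytes 2 and 0.483 in Monocytes 1 and 0.142 in Monocytes 3, but 0.956 in Mø cluster 1 and 0.848 in Mø cluster 2, where it stood at 5132 CPM and 3352 CPM in APOE2. The macrophage list had a median of -1.21 in Monocytes 2, -1.04 in Monocytes 1, -0.62 in Monocytes 3, -0.40 in Mø cluster 1 and -0.25 in Mø cluster 2. Arg1 had ratios of 0.122 in Monocytes 2, 0.132 in Monocytes 1 and 0.522 in Mø cluster 1. H2-Ab1 was lower in APOE4 in Monocytes 2 and Monocytes 3, at ratios of 0.810 and 0.588, and higher in Monocytes 1 and in Mø cluster 1 and 2, at 1.21, 1.65 and 1.28. Class II genes had a median of -0.21 here, -0.32 in Monocytes 3, 0.24 in Monocytes 1 and 0.51 in Mø cluster 1. Ccr2 and Il1b differed little among the 5 labels, with ratios from 0.866 to 0.912 and from 1.09 to 1.44.

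**Figure D5:**
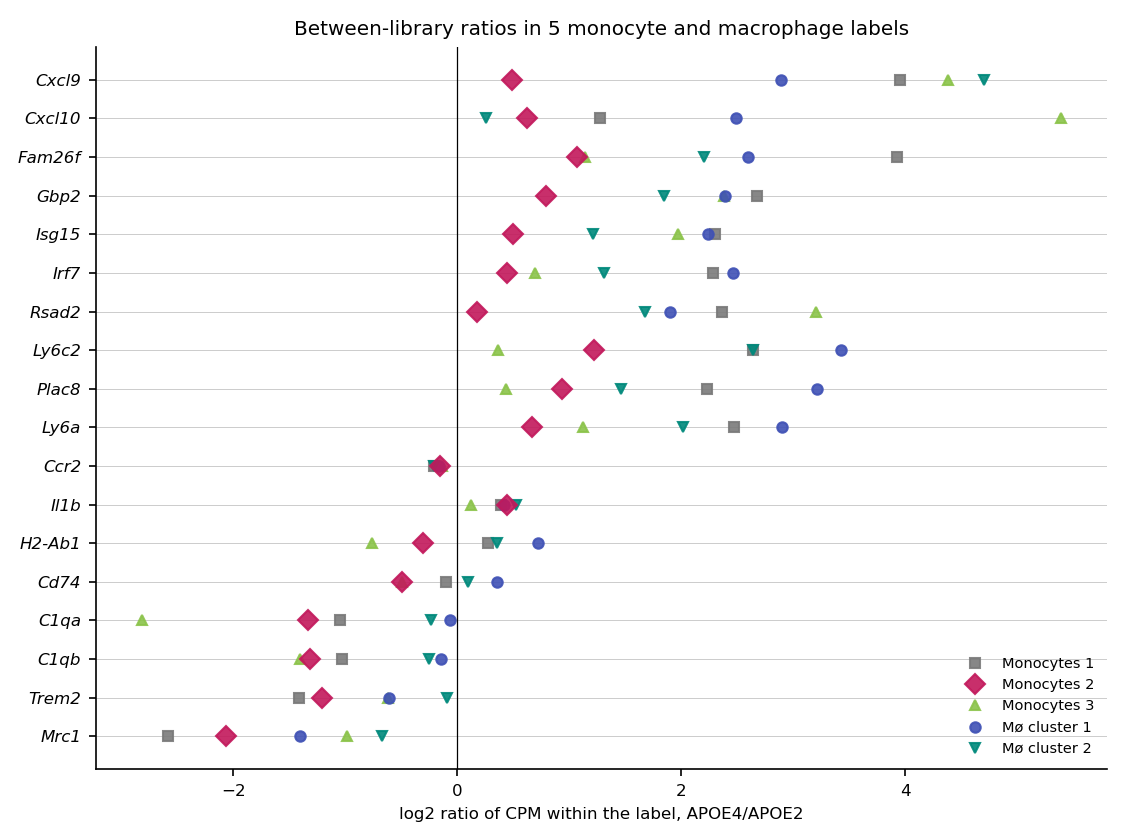
Log2 of the APOE4/APOE2 ratio of 18 genes in Monocytes 2, Monocytes 1, Monocytes 3 and both macrophage clusters. For Cxcl9, Isg15, Irf7, Gbp2 and Rsad2 the Monocytes 2 points lie nearest 0, and for C1qa and C1qb those of the macrophage clusters do.

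Markers of other cells ranged from absent to common. No cell of the label held a UMI of any of 7 melanoma cell markers (with 3 counts as the limit of a count of 0, a UMI in up to 1.46% of APOE2 and 0.570% of APOE4 cells), which bounds cells with a UMI and not cells that express a gene. T cell markers were found in 9 APOE2 cells (4.37%) and 32 APOE4 cells (6.08%), with at least 2 such markers in 8 and 11 cells. Natural killer cell markers were found in 4 cells (1.94%) and 31 cells (5.89%), and B cell markers in 22 (10.7%) and 21 (3.99%). Plasmacytoid dendritic cell markers were found in 96.1% and 98.9% of cells, with 4 and 3 of the 7 markers at 0 and only Bst2 and Tcf4 at 20 UMIs or more. Type 1 dendritic cell markers were found in 80.1% and 85.6% of cells, and the one with the most UMIs was Irf8, which monocytes also express. Neutrophil markers, several of which monocytes also express, were found in 136 cells (66.0%) and 412 cells (78.3%). Migratory dendritic cell markers were lower in APOE4, with a median of -3.50 over 4 measured genes, and 3 cells held 99% of the 103 Ccr7 UMIs of APOE2. Their part in the differences above was not tested, except that the setting without cells holding a T, natural killer or B cell marker gave 192 genes higher and 291 lower. Those counts are over the genes with at least 20 UMIs in the cells left, whose total is not given. A doublet caller marked 0.171% and 0.297% of annotated cells, too few to have worked, and its calls were not used. Its scores were used only to rank cells. The setting without the cells of highest doublet score left out the top 5%, which were 233 APOE2 and 269 APOE4 cells. Of those, 2 and 10 were Monocytes 2 cells. Both libraries shared 9 barcodes, 1 of them in a Monocytes 2 cell.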

How the data were processed

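Droplet 3' libraries (10x Chromium v3) of CD45+ DAPI- tumour leukocytes were analysed, 1 pool of 6 mice per genotype. Per the file headers, the deposited matrices hold raw UMI counts from Cell Ranger 3.0.1, and per the submitters' processing notes the build is mm10. The authors' deposited annotation, made with Seurat 3.0.2 per those notes, gives each cell's library, cell type name and percent of mitochondrial UMIs. The score columns of that deposited table, the authors' map coordinates, were not used. The sources used here do not say how cells were named, whether doublets were removed or whether counting used strand. Of 27998 gene IDs, 27645 (98.7%) were found in GENCODE M21, the source of gene positions.

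UMIs were summed over the Monocytes 2 cells of each library and scaled to CPM. Ratios carry exact conditional binomial 95% intervals, shares Clopper-Pearson intervals, and ratios of ratios normal intervals. Genes needed 20 UMIs over both libraries, and 2-fold counts as past the mark. Beyond the markers and list members, named genes had at least 100 UMIs and a level at least 10% of that in their highest label: the 12 highest ratios by lower bound, the 12 lowest by upper bound, the 12 leading against other cells and the 8 highest and lowest against Monocytes 1. List members to name were drawn from the 2 of most UMIs, the 2 of largest ratio in either direction and those a count turns on. Not all of these were named, so the most extreme members of a list are often not shown. Some lists are given by counts and median alone or are not described. Abca1, Apoe, C3, Ccl2, Cd274, Ciita, Dnaja1, Fn1, Ifih1 and Tap1 fall outside this rule and were named after their values were seen. The members and the 54 lists were chosen with earlier results of these data known. Cells were thinned to 1500 UMIs for shares of cells, which left out 1 APOE2 cell. Python 3.11.15, numpy 2.4.6, pandas 2.3.3, scipy 1.17.1, scanpy 1.11.5, R 4.3.3 and edgeR 4.0.16 (TMM factors only) were used, and the scripts were tested on simulated data. The libraries hold 41207514 and 37349222 UMIs over 5063 and 5689 barcodes.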

Additional observations from a re-analysis of the deposited data

Results flagged for a closer look

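In 886 pairs, the log2 ratio of a gene in Monocytes 2 was set beside that in Monocytes 1 or Monocytes 3. A pair was flagged where the signs were opposite, both ratios were at least 0.5 in size and all 4 counts reached 20 UMIs. Pairs with a lower count were not flagged, whatever their ratios, and the macrophage clusters were not part of this comparison. The flagged pairs numbered 5. With 1 library per genotype the difference was not tested in any of them. Cd209a, a lectin gene of monocyte-derived dendritic cells, had a log2 ratio of -1.55 in Monocytes 2 and 1.00 in Monocytes 1. Its UMIs came from 4 APOE2 cells and 6 APOE4 cells, and none were left without the richest 2% of cells. Egr1, an immediate early gene, had -0.71 in Monocytes 2 and 0.79 in Monocytes 3. Maf, a macrophage transcription factor, had -0.60 and 0.66 in the same labels. Fpr2, a formyl peptide receptor, had 0.83 in Monocytes 2 and -0.58 in Monocytes 3. Lyz1 had 1.68 and -1.37, with most of its APOE4 UMIs in 3 Monocytes 2 cells. The same contrast in Monocytes 2 therefore rests on few cells for Cd209a and Lyz1, and on 65 and 129 cells with a UMI for Egr1.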

How the results depend on the processing

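The share, the counts of genes and lists, the list medians and the ratios of genes named between libraries were recomputed with other denominators, cell filters, scalings and minimum counts; other values were not. Of 51 recomputed counts and shares 41 stayed within 1.5 times the count or inside the 95% interval of the share ratio. Of 484 list medians 476 stayed inside the order-statistic interval of the median over members, and of 285 gene ratios 247 stayed inside their counting interval. The ratio of shares was 2.84 among myeloid cells and 2.84 among the monocyte and macrophage labels. Thinning to 1500 UMIs gave 172 genes at least 2-fold lower and 2 lists with a median of -0.5 or below, where the full data gave 4. A minimum of 100 UMIs left 41 genes higher (0.754%) and 53 lower (0.974%). No minimum with 0.5 added gave 824 higher and 1887 lower, of all genes with at least 1 UMI. Leaving out for each gene the 2% of cells richest in it (4 and 11 cells), chosen after seeing the data, gave 291 higher and 774 lower. The gene total differs between the thinned, no-minimum and richest-2% settings, and shares of it are not given. Their counts are therefore not comparable with the 169 higher and 293 lower of 8821 genes. The neutrophil list turned to -0.76 without the cells of highest doublet score and to -0.64 without the richest 2%, from 0.42. The proliferation list turned to 0.69 after thinning and to 0.36 at 100 UMIs, from -0.49, and the glutathione and redox list to 0.072 at 100 UMIs, from -0.11. Hspa1b turned to a log2 ratio of 0.29 without the richest 2%, from -1.94. Median-ratio and TMM scaling raised all log2 ratios by 0.023 and 0.055. No paired analysis was possible because each genotype has 1 pooled library. APOE2 holds fewer cells and UMIs, which limits genes of low level there.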

Other observations

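Some further genes also differed, and were named after their values were seen. Only Irg1 was outside the lists as measured, and the others in this paragraph are list members. Irg1, the older symbol of Acod1, which encodes the enzyme that makes itaconate, was at 42.3 CPM in APOE2 and 178 CPM in APOE4, a ratio of 4.21 (3.27 to 5.49) on 67 and 692 UMIs. A UMI of Irg1 was present in 8.29% and 16.2% of cells thinned to 1500 UMIs, and in 0% of 36 and 62 B cells (upper bounds 9.74% and 5.78%). Pglyrp1, a peptidoglycan-binding protein gene of neutrophils and patrolling monocytes, had a ratio of 10.8 (5.36 to 25.2) on 8 and 211 UMIs, with 104 APOE4 cells holding a UMI. Of 8 patrolling monocyte markers, Cx3cr1 was at 116 CPM and 52.5 CPM while Treml4 was at 13.3 CPM and 30.4 CPM. Asns, asparagine synthetase, was without a UMI in APOE2 and had 39 UMIs in the APOE4 library, where it was at least 5.30-fold higher, taking a floor of 3 counts for APOE2. Prdx5, a peroxiredoxin, was at 1499 CPM and 2375 CPM, and Gsr, glutathione reductase, at 174 CPM and 44.5 CPM.

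Of 7 membrane-spanning 4A genes 6 were higher in APOE4 with a median log2 ratio of 0.36, and the macrophage gene Ms4a7 was the exception at 234 CPM and 90.9 CPM. Hspa8 and Dnaja1, constitutive chaperone genes, had ratios of 1.46 and 1.47, while the list of 10 heat shock chaperones had a median of 0.08. Of 10 growth factor and TGF-beta pathway genes 8 were lower with a median of -0.36, and Areg, an EGF-family ligand, had 85.5% of its APOE2 UMIs in 3 cells.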
